A study of Mus musculus with 416 samples.

Results

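The cells described are single blastomeres of 8-cell and morula-stage mouse embryos that had replicated most of their genome when they were sampled. They were taken from the siRif1 and siCont cells of these 2 stages as those with at least 55% of their measured bins in the replicated state, and are called late-S cells. There were 67 of them among 199 cells of these stages and 299 cells of all stages. At the 8-cell stage 14 of 50 siRif1 cells and 21 of 60 siCont cells qualified. Among morula cells 17 of 45 siRif1 cells and 15 of 44 siCont cells did. The cells were thus chosen by a measured value, how far each had gone through S phase, so the percent replicated of these cells is a description and not a result.

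Embryos were of the genotype (C57BL/6J xCBA) x DBA/2J. In the siRif1 groups zygotes had been injected with 20 µM of an siRNA against Rif1, and in the siCont groups with 20 µM of a control siRNA, both 17 to 18 hours after hCG and before culture to the stage in question. DNA of each blastomere was amplified with its own barcode, and the deposited tables give a state for every cell in bins of 50 kb along chromosomes 1 to 19. No label ties a cell to an embryo, litter or batch, so each group counts as 1 sample, differences are given by their size, and no p-values are given. How far Rif1 was depleted was not measured in these data.

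Rif1 encodes a large nuclear protein that binds chromatin and recruits protein phosphatase 1, which counteracts the kinases that fire replication origins. In differentiated and embryonic stem cells its loss is known to blur the order in which domains replicate. Gene-rich, CpG-rich and transcribed DNA usually replicates early in S phase, whereas gene-poor DNA and large clusters of sensory receptor genes usually replicate late. DNA that a cell has not copied late in S phase would therefore normally be the gene-poor part of its genome.

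The late-S cells of the 4 groups lay at different points of S phase. Percent replicated ran from 55.7 to 66.3% with a median of 60.9% in siRif1 cells of the 8-cell stage, against 55.4 to 97.3% with a median of 69.2% in siCont cells. For morula cells it ran from 58.04 to 90.8% with a median of 65.8% in siRif1 cells, against 56.04 to 81.8% with a median of 63.4% in siCont cells. Controls were thus further on at the 8-cell stage, and siRif1 cells at the morula stage. For this reason values from cells between 55 and 70% replicated are given beside results that they move, with 14 siRif1 and 13 siCont cells at the 8-cell stage and 12 of each at the morula stage. The cells just below the threshold had replicated 53.4% (siRif1) and 54.9% (siCont) at the 8-cell stage and 54.8% in both morula groups. The first cells above it stood at 55.7% (siRif1) and 55.4% (siCont) at the 8-cell stage, and at 58.04% (siRif1) and 56.04% (siCont) at the morula stage.

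A few cells stood apart. At least 1 chromosome had no state in 2 of 14 siRif1 and 0 of 21 siCont cells of the 8-cell stage, and in 2 of 17 siRif1 and 2 of 15 siCont cells of the morula stage. A chromosome with 75% or more of its measured bins unreplicated was seen in 0 of 14 siRif1 and 1 of 21 siCont cells of the 8-cell stage. Among morula cells it was seen in 5 of 17 siRif1 cells and 1 of 15 siCont cells, and in the siCont cell, replicate 48, 99.8% of the measured bins of chromosome 4 were unreplicated. Leaving such chromosomes out of their cells, an alternative chosen after seeing the data, changed the contrast between late and early DNA described next by less than 1 point. In each group even the most alike cells differed, at 22.8% (siRif1) and 11.8% (siCont) of their shared bins at the 8-cell stage and at 23.7% (siRif1) and 16.03% (siCont) at the morula stage.

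The DNA that remained unreplicated was less sharply confined to late-replicating regions in siRif1 cells than in siCont cells. The unreplicated share of a bin is the percent of measured late-S cells in the unreplicated state. Bins were put into 5 equal classes, earliest to latest, by the replicated share of other cells, the siCont cells below 55% of both stages. Classes from controls of the same stages can favour a steeper profile in siCont cells. The gaps of single cells given below rest on these classes. In the earliest class, which holds 17.6 genes per Mb, the mean unreplicated share was 25.6% in siRif1 and 9.80% in siCont cells of the 8-cell stage, and 20.9% in siRif1 and 12.8% in siCont cells of the morula stage. In the latest class, with 3.03 genes per Mb, it was 63.1% in siRif1 and 66.8% in siCont cells of the 8-cell stage, and 48.2% in siRif1 and 74.4% in siCont cells of the morula stage. Gene-dense DNA was thus more often still uncopied in siRif1 cells at both stages, and gene-poor DNA less often so.

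**Figure D1:**
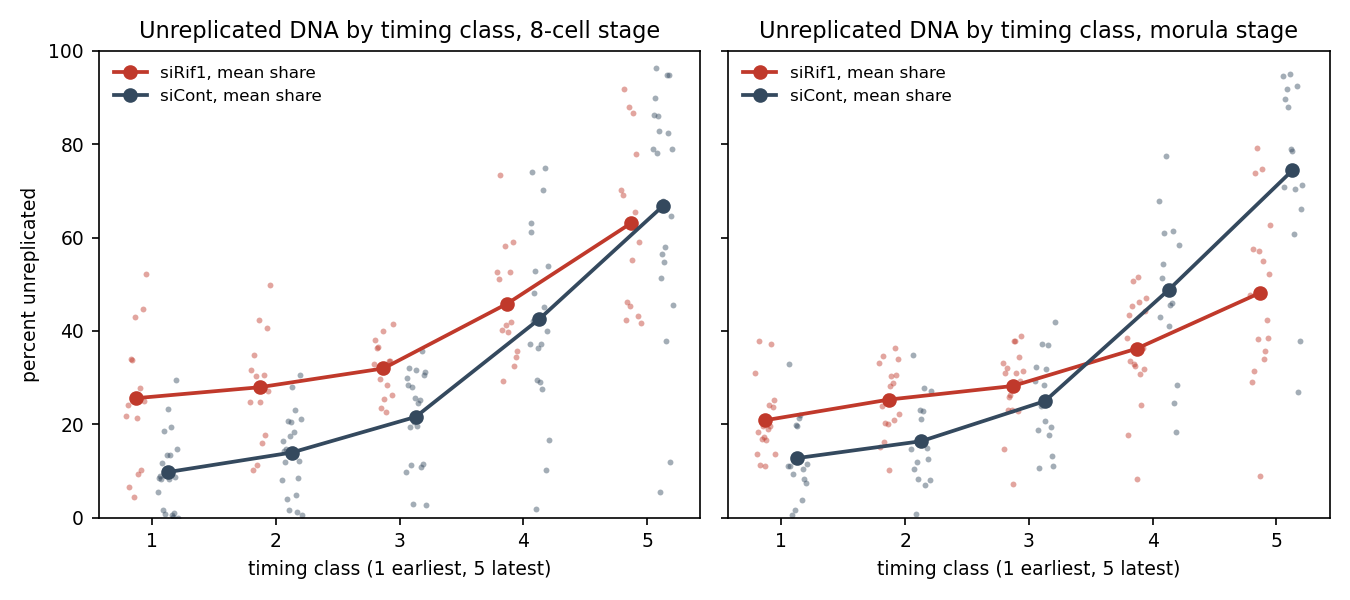
Percent of DNA unreplicated (vertical axis) in 5 classes of bins from earliest to latest (horizontal axis) at the 8-cell stage (left) and morula stage (right). Large points and lines are group means over bins, siRif1 in red and siCont in dark blue, and small points are single late-S cells. The siRif1 line is the flatter one at both stages, and at the morula stage it crosses the siCont line between classes 3 and 4.

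To remove the different mean of each group, unreplicated shares were centred on the mean over used bins, which was 38.9% in siRif1 and 30.96% in siCont cells of the 8-cell stage and 31.8% in siRif1 and 35.5% in siCont cells of the morula stage. All differences from here on are siRif1 minus siCont after this centring, in percentage points, and a positive one means relatively more unreplicated in siRif1 cells. The earliest class had a difference of 7.87 points at the 8-cell stage and 11.8 points at the morula stage. The latest class had differences of -11.7 and -22.5 points. Latest minus earliest gave a contrast of -19.5 points (SD over autosomes 6.17, n = 19) at the 8-cell stage and -34.3 points (SD 4.76) at the morula stage, with a mean of -26.9 points. The contrast was negative on 19 of 19 autosomes at each stage, and it ranged over autosomes from -33.9 to -11.9 points at the 8-cell stage and from -47.2 to -26.4 points at the morula stage. All autosomes come from the same cells, so they are not replicates of the treatment, and their SD does not measure the spread among cells. In cells between 55 and 70% the contrast was -30.3 points at the 8-cell stage and -34.2 points at the morula stage, so the 2 stages lay nearer to each other in that range. Mean percent replicated in it was 60.9% in siRif1 and 62.1% in siCont cells of the 8-cell stage, and 63.99% in siRif1 and 60.9% in siCont cells of the morula stage. The 8-cell contrast depended most on the cells used: in cells of at least 60% it was -9.18 points. With classes from siCont cells of the 4-cell stage, the contrast was smaller, -12.7 points at the 8-cell stage and -23.7 points at the morula stage.

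Single cells differed widely. For each cell a gap was taken as the unreplicated share of the latest class minus that of the earliest, which is large where the remaining DNA lies in late regions and near 0 where it is spread evenly. At the 8-cell stage the lowest, median and highest gaps were -10.6, 35.8 and 85.2 points in siRif1 cells, against 3.20, 64.2 and 94.0 points in siCont cells. In morula cells they were -6.26, 18.4 and 62.4 points in siRif1 cells, against 16.4, 59.1 and 93.4 points in siCont cells. The ranges overlapped at both stages, and some siRif1 cells of the 8-cell stage, such as replicates 12 and 20 with gaps of 85.2 and 83.4 points, lay among the controls. Replicate 63 of the siRif1 8-cell group had 52.3% of its earliest and 41.7% of its latest class unreplicated, the reverse of the usual order.

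A gap under 20 points, a limit chosen after the values were seen, was found in 5 of 14 siRif1 cells (35.7%, exact Clopper-Pearson interval 12.8 to 64.9%) and 3 of 21 siCont cells (14.3%, interval 3.05 to 36.3%) of the 8-cell stage. Among morula cells it was found in 9 of 17 siRif1 cells (52.9%, interval 27.8 to 77.0%) and 1 of 15 siCont cells (6.67%, interval 0.169 to 31.9%). These 95% intervals treat cells as independent, cover counting error only, and overlap between treatments at both stages. A gap must shrink as a cell nears the end of S phase, and siCont cells that had replicated 88.9 and 97.3% had gaps of 3.20 and 4.71 points. Between 55 and 70% replicated, gaps under 20 were found in 5 of 14 siRif1 and 0 of 13 siCont cells (interval up to 24.7%) of the 8-cell stage, and in 4 of 12 siRif1 and 0 of 12 siCont cells (interval up to 26.5%) of the morula stage. The lowest gap of a control in that range was 35.1 points at the 8-cell stage and 37.8 points at the morula stage. A gap below 0, with more of the early than of the late DNA left, was seen in 2 of 14 siRif1 and 0 of 21 siCont cells of the 8-cell stage and in 2 of 17 siRif1 and 0 of 15 siCont cells of the morula stage.

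**Figure D2:**
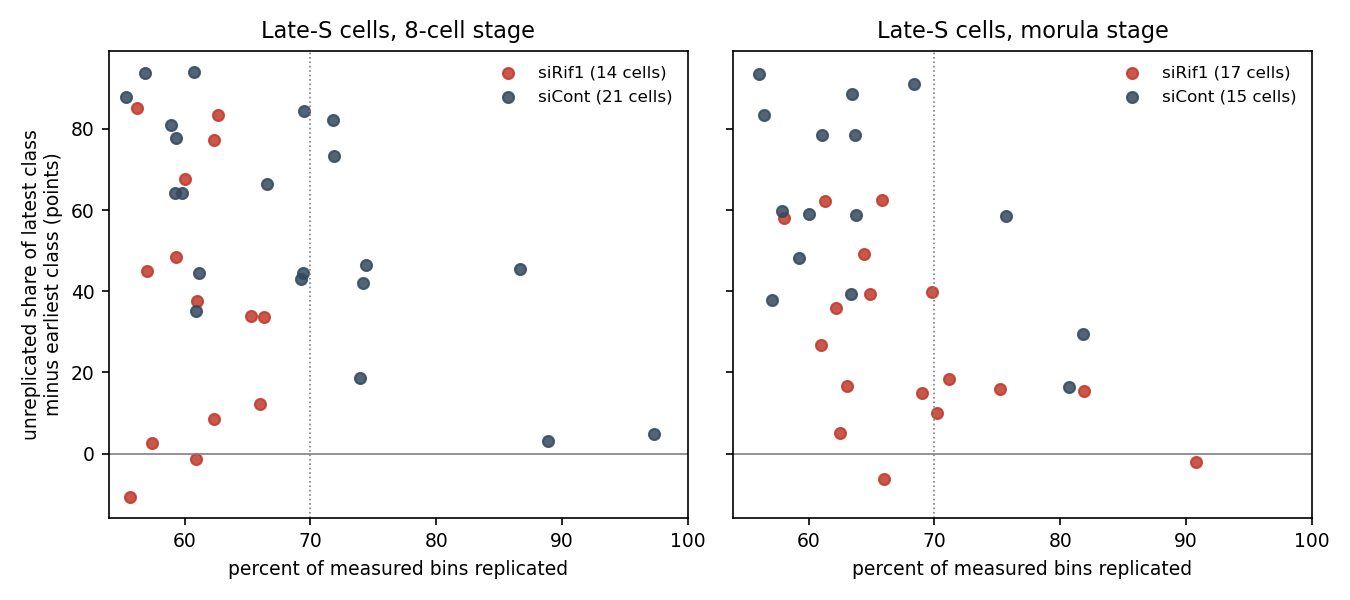
Gap between the unreplicated share of the latest and the earliest class (vertical axis, points) against percent of measured bins replicated (horizontal axis) for each late-S cell, at the 8-cell stage (left) and morula stage (right), siRif1 in red and siCont in dark blue. To the left of the dotted line at 70% no siCont cell lies below 35.1 points, while siRif1 cells reach -10.6 points at the 8-cell stage and -6.26 points at the morula stage.

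The same pattern showed in where a cell's remaining DNA lay. Of the unreplicated bins of a cell, a median of 13.5% belonged to the earliest class in siRif1 cells of the 8-cell stage, against 6.59% in siCont cells. The morula medians were 13.8% in siRif1 and 6.24% in siCont cells. The latest class held a median of 33.6% of the unreplicated bins in siRif1 and 42.6% in siCont cells of the 8-cell stage, and 28.9% in siRif1 and 43.3% in siCont cells of the morula stage. An even spread over the 5 equal classes would put about 20% in each.

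The remaining DNA lay in many separate stretches. Runs of unreplicated bins numbered 399 to 737 per cell (median 524.5) in siRif1 and 46 to 665 (median 415) in siCont cells of the 8-cell stage. In morula cells they numbered 178 to 560 (median 450) in siRif1 and 264 to 524 (median 425) in siCont cells. Between 55 and 70% replicated the siCont medians were 468 at the 8-cell stage and 466 at the morula stage, against 524.5 and 466.5 for siRif1. The median run was 1.15 Mb long in siRif1 cells of either stage, against 1 Mb in siCont cells of the 8-cell stage and 1.25 Mb in those of the morula stage. The ranges of run number and length over cells overlapped at both stages.

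Late-S siRif1 cells also resembled each other less than late-S controls did. Pairs whose percent replicated differed by at most 5 points shared their state at a median of 58.2% of bins (range over 57 pairs 47.9 to 77.2%) among siRif1 and 69.3% (63 pairs, 60.3 to 84.0%) among siCont cells of the 8-cell stage. Pairs of a siRif1 with a siCont cell shared a median of 61.8% (107 pairs). The morula medians were 57.8% (56 pairs, 52.2 to 67.5%) among siRif1 cells, 60.01% (85 pairs) for mixed pairs and 65.2% (43 pairs, 56.6 to 84.0%) among siCont cells. Mixed pairs thus agreed more often than pairs of siRif1 cells at both stages. Pairs share cells and are not independent.

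Few bins were unreplicated in nearly all late-S siRif1 cells. Bins unreplicated in at least 80% of cells made up 2.27% of the used genome (1044 bins, 52.2 Mb) in siRif1 and 4.38% (2020 bins, 101 Mb) in siCont cells of the 8-cell stage. In morula cells they made up 0.230% (106 bins, 5.3 Mb) in siRif1 and 10.95% (5046 bins, 252 Mb) in siCont cells. In cells of 55 to 70% the counts were 1044 bins in siRif1 and 5902 in siCont cells of the 8-cell stage. The morula counts in that range, with 12 cells of each treatment, were 715 in siRif1 and 7282 in siCont cells. The bins of the siCont morula cells were unreplicated in a mean of 50.6% of siRif1 and 86.1% of siCont cells of that stage. At the 8-cell stage 380 bins were shared by both treatments, 36.4% of the siRif1 bins and 18.8% of the siCont bins. Between stages 1454 siCont bins were shared, 71.98% of those of the 8-cell stage and 28.8% of those of the morula stage. The corresponding 58 shared siRif1 bins were 5.56% of those of the 8-cell stage and 54.7% of those of the morula stage. All 4 groups had 45 such bins in common. In cells of 55 to 70% the treatments shared 635 bins at the 8-cell stage, 60.8% of the siRif1 and 10.8% of the siCont bins. Between stages 4430 siCont bins were shared in that range, 75.1% of those of the 8-cell stage and 60.8% of those of the morula stage. The 169 shared siRif1 bins were 16.2% of those of the 8-cell stage and 23.6% of those of the morula stage. All 4 groups then had 116 bins in common.

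Windows of 1 Mb were ranked by the mean of their unreplicated shares in the 4 groups, so the order within a group can differ. In siRif1 cells of the 8-cell stage, for example, the gene-rich window of chromosome 17 from 27 to 28 Mb, described further on, stood at 92.5%, above the first in this ranking. The window ranked first was chromosome 2 from 88 to 89 Mb, which holds 40 protein-coding genes, the longest of them the olfactory receptor genes Olfr1213, Olfr1202 and Olfr1211. Its share was 85.4% in siRif1 and 92.4% in siCont cells of the 8-cell stage, and 77.9% in siRif1 and 97.7% in siCont cells of the morula stage. Chromosome 7 from 85 to 86 Mb, with pheromone receptor genes of the vomeronasal type including Vmn2r67, stood at 88.2% in siRif1 and 91.9% in siCont cells of the 8-cell stage and at 71.3% in siRif1 and 89.3% in siCont cells of the morula stage. Chromosome 17 from 39 to 40 Mb, with the secreted pheromone genes Esp38, Esp15 and Esp16, stood at 82.1% in siRif1 and 83.8% in siCont cells of the 8-cell stage and at 77.1% in siRif1 and 92% in siCont cells of the morula stage. The other windows of this kind, on chromosome 6 from 68 to 69 Mb and chromosome 3 from 47 to 48 Mb, held no protein-coding gene. All 5 windows had the latest class as the median of their bins, and at the morula stage all 5 had a lower share in siRif1 cells.

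Promoters of the longest gene in the first 2 of these windows are shown as examples. The base composition of whole windows was not measured. They run from 250 bases before to 50 bases after the annotated start and come from RefSeq for GRCm38.p6, the build of the files. The minus strand holds both, Olfr1213 at chr2:88980218-88980517 and Vmn2r67 at chr7:85155853-85156152. Capitals mark each CG dinucleotide, which reads the same on both strands.
Olfr1213: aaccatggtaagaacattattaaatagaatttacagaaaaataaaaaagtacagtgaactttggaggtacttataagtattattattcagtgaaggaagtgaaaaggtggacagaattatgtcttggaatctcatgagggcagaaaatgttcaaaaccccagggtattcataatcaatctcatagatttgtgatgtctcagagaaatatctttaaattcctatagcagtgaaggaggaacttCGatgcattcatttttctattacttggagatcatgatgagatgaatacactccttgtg
Vmn2r67: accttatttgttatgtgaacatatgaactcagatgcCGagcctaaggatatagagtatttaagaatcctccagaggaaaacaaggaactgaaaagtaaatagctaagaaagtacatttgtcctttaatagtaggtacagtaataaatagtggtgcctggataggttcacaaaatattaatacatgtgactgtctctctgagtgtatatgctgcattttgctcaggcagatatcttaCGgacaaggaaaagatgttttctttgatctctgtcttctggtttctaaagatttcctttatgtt
The first holds 1 CG at a GC content of 33%, and the second 2 at 35%. Among 15508 genes with a promoter in the table, the median GC content was 57.3% with 15 CG, and 74.9% held 5 CG or more. For the 29 genes whose midpoint bin was unreplicated in at least 80% of cells in all 4 groups, the medians were 36% and 1 CG, and 0 of 29 held 5 or more. Receptor genes of 1 cluster share sequence and bins, so these 29 are not separate measurements.

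Windows past 30 points toward less unreplicated in siRif1 cells were gene-poor at both stages, and those toward more unreplicated were denser in genes, chiefly at the 8-cell stage. Of 2321 windows of 1 Mb, 59 (2.54%) were that much more unreplicated in siRif1 cells of the 8-cell stage, and 44 (1.9%) that much less. Among morula cells 72 (3.1%) were more and 175 (7.54%) less unreplicated. For the mean of both stages there were 13 (0.56%) and 48 (2.07%) windows. The 13 windows held 28 protein-coding genes per Mb, against 0.884 in the 48 and 8.44 over all windows. Among windows of single stages, those more unreplicated held 24.5 genes per Mb at the 8-cell stage and 11.4 at the morula stage, and those less unreplicated 1.76 and 1.07. In the 13, 75.8% of bins belonged to the 2 earliest classes, and in the 48, 99.3% belonged to the 2 latest. Mean siCont shares in the earliest class, 9.80% (8-cell) and 12.8% (morula), leave little room to fall by 30 points. Those in the latest class, 66.8 and 74.4%, leave little room to rise by as much. The class and gene density of windows past 30 points were therefore in part fixed beforehand. In cells of 55 to 70% the counts for both stages were 35 and 109.

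The stages agreed in part. Across the 2321 windows the 8-cell and morula differences had a correlation of r = 0.378, and 1521 windows (65.5%) had the same sign. In cells of 55 to 70% r was 0.447. Neighbouring windows share runs of 1 state, so windows are not independent.

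**Figure D3:**
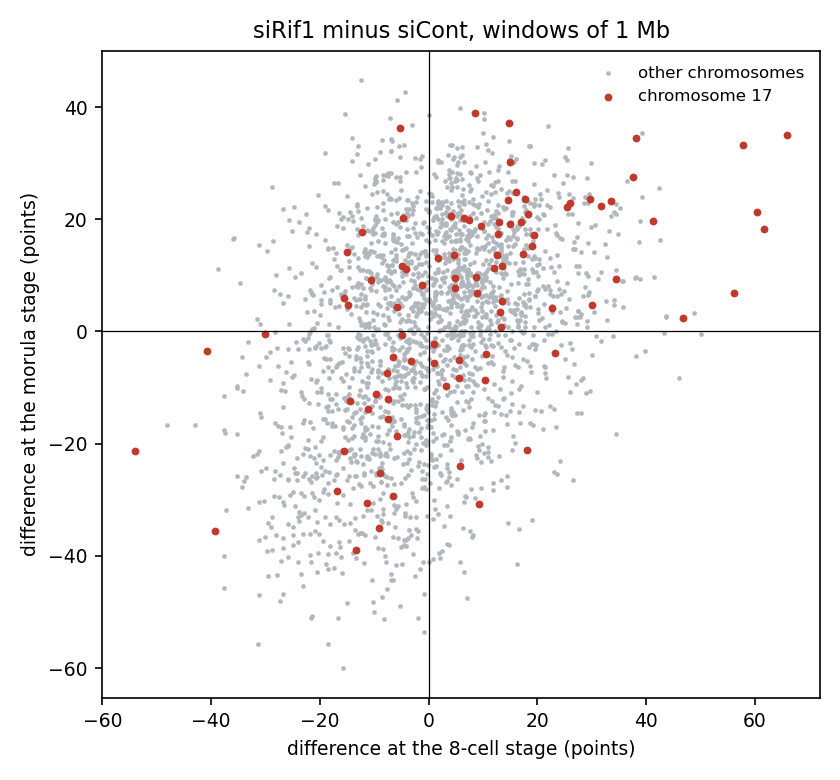
Difference in unreplicated share, siRif1 minus siCont, at the 8-cell stage (horizontal axis, points) and the morula stage (vertical axis, points) for 2321 windows of 1 Mb. Windows of chromosome 17 are red and other chromosomes grey. The red points at the upper right include the window with 65.99 points at the 8-cell stage and 35.01 points at the morula stage.

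Proximal chromosome 17 was the region most often left unreplicated in siRif1 relative to control cells. Of the 13 windows past 30 points in the mean of both stages, 8 lay on this chromosome, which also had the highest mean difference of any autosome, 7.20 points for both stages together. For both stages together the highest window ran from 27 to 28 Mb of chromosome 17 and holds 18 protein-coding genes. Among them are Anks1, which encodes an adaptor with ankyrin repeats, and the glutamate receptor gene Grm4. A window is counted as unreplicated in a cell where more than 50% of its used bins were. At the 8-cell stage this was so in 13 of 14 siRif1 cells (92.9%, interval 66.1 to 99.8%) and 5 of 21 siCont cells (23.8%, interval 8.22 to 47.2%). Among morula cells it was so in 7 of 17 siRif1 cells (41.2%, interval 18.4 to 67.1%) and 2 of 15 siCont cells (13.3%, interval 1.66 to 40.5%). The intervals did not overlap at the 8-cell stage and overlapped at the morula stage. They treat cells as independent, and the window was picked for its high difference, so a lack of overlap is not a test. The differences were 65.99 points at the 8-cell stage and 35.01 points at the morula stage.

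The window from 34 to 35 Mb, which holds 53 genes including Tnxb (a tenascin of the extracellular matrix), Col11a2 (a collagen chain) and class II MHC genes, was unreplicated in 13 of 14 siRif1 and 5 of 21 siCont cells of the 8-cell stage. Among morula cells it was unreplicated in 6 of 17 siRif1 and 1 of 15 siCont cells, and the differences were 57.8 and 33.2 points. From 24 to 25 Mb, with the ABC transporter genes Abca17 and Abca3 and the kinase gene Pdpk1, the counts were 11 of 14 siRif1 and 1 of 21 siCont cells of the 8-cell stage and 5 of 17 siRif1 and 2 of 15 siCont cells of the morula stage. From 25 to 26 Mb, with Lmf1, a lipase maturation factor, and Ift140, a component of intraflagellar transport, they were 12 of 14 siRif1 and 2 of 21 siCont cells of the 8-cell stage and 4 of 17 siRif1 and 1 of 15 siCont cells of the morula stage. From 26 to 27 Mb, with Axin1, a scaffold of the complex that degrades beta-catenin, they were 8 of 14 siRif1 and 5 of 21 siCont cells of the 8-cell stage and 6 of 17 siRif1 and 0 of 15 siCont cells of the morula stage. These 5 windows lie between 24 and 35 Mb of 1 chromosome and come from the same cells, so they are not separate observations. How often they were unreplicated in the same cell was not counted. The siRif1 share was higher at the 8-cell stage than at the morula stage in each of them.

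Promoters of the longest genes of the first 2 windows are shown for contrast with those of the receptor genes above. Both lie on the plus strand, Anks1 at chr17:27909056-27909355 and BC051142 at chr17:34398570-34398869, with CG in capitals as before.
Anks1: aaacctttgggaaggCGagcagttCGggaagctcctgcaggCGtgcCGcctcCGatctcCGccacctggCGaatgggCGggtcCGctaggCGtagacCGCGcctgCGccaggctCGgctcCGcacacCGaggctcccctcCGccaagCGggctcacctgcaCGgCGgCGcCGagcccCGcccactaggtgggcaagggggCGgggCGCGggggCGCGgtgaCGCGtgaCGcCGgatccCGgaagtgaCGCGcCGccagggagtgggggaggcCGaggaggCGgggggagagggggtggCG
BC051142: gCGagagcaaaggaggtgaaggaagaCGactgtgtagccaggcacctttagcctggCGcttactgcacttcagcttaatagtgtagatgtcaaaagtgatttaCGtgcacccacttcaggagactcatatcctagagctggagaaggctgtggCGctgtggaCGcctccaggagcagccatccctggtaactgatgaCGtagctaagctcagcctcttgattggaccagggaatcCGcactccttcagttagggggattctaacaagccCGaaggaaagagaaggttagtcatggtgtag
Anks1 has 39 CG at a GC content of 75.3%, and BC051142 has 9 at 52%. The 555 genes past 30 points toward more unreplicated in siRif1 (mean of both stages) that had a promoter in the table had medians of 58.3% GC and 16 CG, close to those of all genes. The 67 such genes toward less unreplicated had medians of 53.3% and 10 CG.

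The chromosome 17 windows also differed in cells that the 55% threshold had left out. Among cells below 55%, the window from 27 to 28 Mb had an unreplicated share of 72.2% in 36 siRif1 and 45.6% in 39 siCont cells of the 8-cell stage, a difference of 24.1 points. In the corresponding morula cells it was 45% in 28 siRif1 and 35% in 29 siCont cells, a difference of 7.38 points. The window from 25 to 26 Mb had differences of 27.8 points at the 8-cell stage and 24.8 points at the morula stage in these cells. From 24 to 25 Mb they were 19.3 and 10.4 points, and from 26 to 27 Mb 24.7 and 18.2 points. The window from 34 to 35 Mb had only 8.95 points at the 8-cell stage, against 57.8 points in late-S cells, and 15.2 points at the morula stage. Whether these cells come from the same embryos as the late-S cells is not given in the labels.

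Outside chromosome 17 the window with the highest difference toward more unreplicated in siRif1 cells, among those of 1 sign at both stages, lay on chromosome 18 from 4 to 5 Mb, with Svil, which encodes an actin-binding protein, the endothelial junction gene Jcad and Mtpap, a mitochondrial poly(A) polymerase. It was unreplicated in 7 of 14 siRif1 and 0 of 21 siCont cells of the 8-cell stage, and in 7 of 17 siRif1 and 1 of 15 siCont cells of the morula stage. The differences were 39.3 and 35.4 points. In cells below 55% they were -1.48 and -13.2 points, so the direction seen in late-S cells was not found in the other cells of the same groups. The bin of the Mtpap midpoint was unreplicated in 9 of 14 siRif1 and 0 of 21 siCont cells of the 8-cell stage and in 9 of 17 siRif1 and 2 of 15 siCont cells of the morula stage.

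The 6 windows with the lowest difference of both stages held at most 4 protein-coding genes each. Chromosome 5 from 70 to 71 Mb, with Gabra2 and Gabrg1, which encode subunits of the GABA-A receptor, was unreplicated in 7 of 14 siRif1 cells (50%, interval 23.04 to 76.96%) and 17 of 21 siCont cells (81.0%, interval 58.1 to 94.6%) of the 8-cell stage. The morula counts were 7 of 17 siRif1 cells (41.2%, interval 18.4 to 67.1%) and 14 of 15 siCont cells (93.3%, interval 68.1 to 99.8%). The differences were -31.4 points at the 8-cell stage and -55.7 points at the morula stage. The adjoining window from 71 to 72 Mb, with the subunit gene Gabrb1, had differences of -37.6 and -45.6 points. Intervals overlapped at the 8-cell stage and not at the morula stage for the first of these windows. That window was picked for its low difference and the intervals treat cells as independent, so this is not a test.

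The synaptic adhesion gene Slitrk1 is the only protein-coding gene of chromosome 14 from 108 to 109 Mb, which was unreplicated in 6 of 14 siRif1 and 16 of 21 siCont cells of the 8-cell stage and in 5 of 17 siRif1 and 12 of 15 siCont cells of the morula stage. The window on chromosome 16 from 74 to 75 Mb lies inside Robo2, a receptor for the Slit guidance cues, whose annotated length is 1555 kb. It was unreplicated in 9 of 14 siRif1 and 14 of 21 siCont cells of the 8-cell stage, a difference of -15.7 points. Among morula cells it was unreplicated in 5 of 17 siRif1 and 13 of 14 siCont cells, and the difference was -60.0 points, the lowest of all 2321 windows at either stage. Chromosome 14 from 116 to 117 Mb, which overlaps the glypican genes Gpc5 and Gpc6, had differences of -27.3 and -48.1 points. Chromosome 11 from 13 to 14 Mb, free of protein-coding genes, showed differences of -37.7 and -40.0 points.

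Most cells below 55% in each group still had these late windows unreplicated, which limits the size of any difference there. Chromosome 5 from 70 to 71 Mb was unreplicated in 88.5% of siRif1 and 84.2% of siCont cells of the 8-cell stage and in 96.1% of siRif1 and 98.3% of siCont cells of the morula stage, with differences of 1.76 and -4.83 points. The Robo2 window had differences of 10.3 and 5.23 points there, opposite in sign to those of the late-S cells. The remaining windows of lowest difference were negative at both stages in these cells. Chromosome 5 from 71 to 72 Mb had -10.96 points (8-cell) and -9.96 points (morula). On chromosome 14 the values were -10.2 and -9.10 points from 108 to 109 Mb, and -10.4 and -5.74 points from 116 to 117 Mb. Chromosome 11 from 13 to 14 Mb had -7.02 and -10.8 points.

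**Figure D4:**
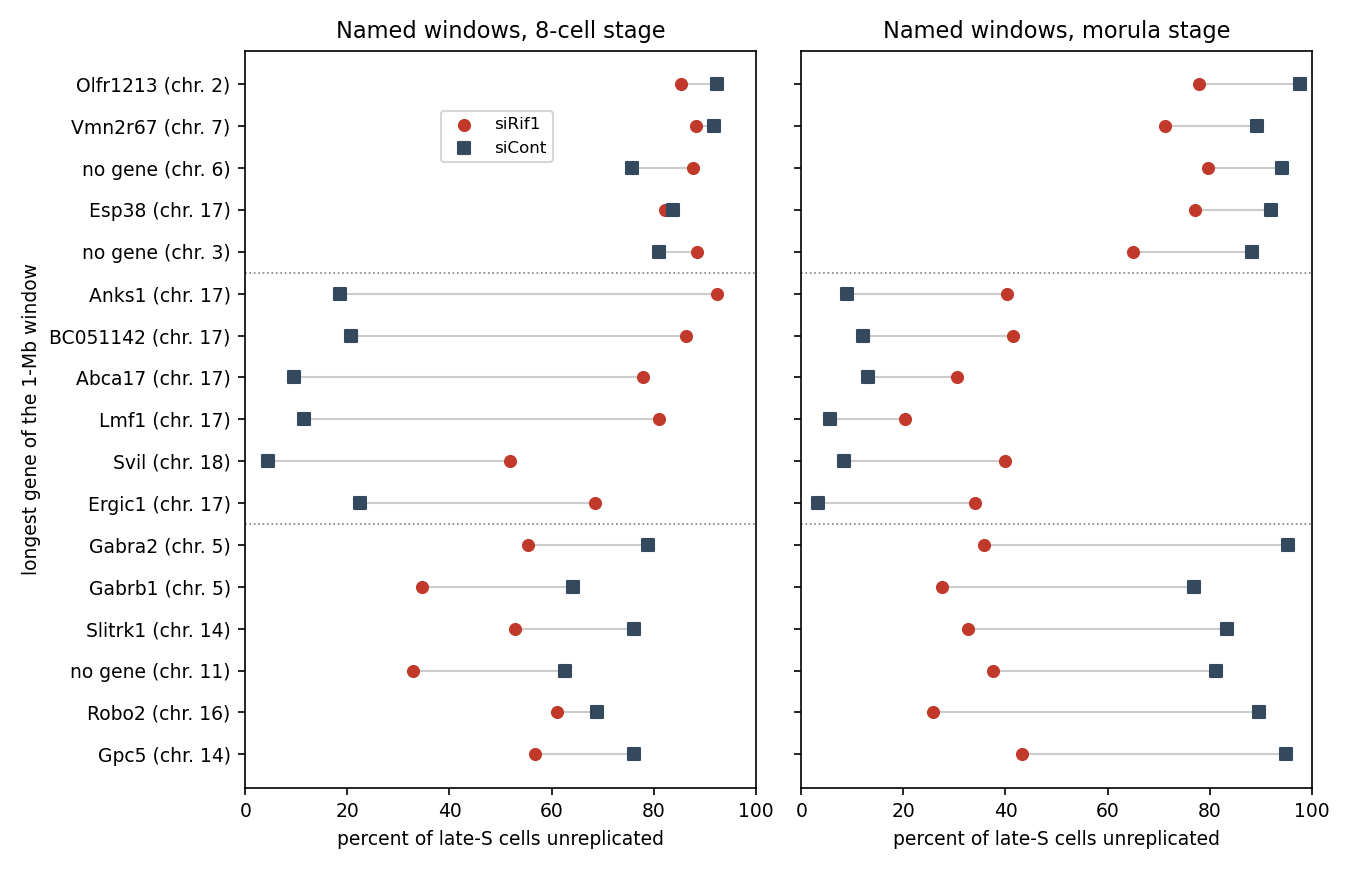
Percent of late-S cells unreplicated (horizontal axis), as the mean over the bins of a window, for 17 windows of 1 Mb named by their longest gene, at the 8-cell stage (left) and morula stage (right), with siRif1 as red circles and siCont as dark blue squares. From top to bottom are the 5 most unreplicated windows, the 6 of highest and the 6 of lowest difference of both stages. The middle group lies further right in siRif1 and the bottom group further right in siCont at both stages.

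The extremes of each stage taken alone were as follows. The lowest differences of the 8-cell stage lay on chromosome 17 from 93 to 94 Mb, with the neuropeptide gene Adcyap1, at -54.0 points (4 of 14 siRif1 and 17 of 21 siCont cells unreplicated), on chromosome 11 from 39 to 40 Mb, with no gene, at -48.1 points, and on chromosome 12 from 67 to 68 Mb, at Mdga2, at -42.9 points. In morula cells the same windows had differences of -21.2, -16.6 and -16.6 points, and in morula cells of 55 to 70% replicated of -35.1, -36.8 and -29.3 points. The highest morula differences lay on chromosome 8 from 47 to 48 Mb, with Stox2, at 44.8 points, on chromosome 9 from 74 to 75 Mb, with Wdr72, at 42.6 points, and on chromosome 9 from 123 to 124 Mb, with the mitochondrial leucyl-tRNA synthetase gene Lars2, at 41.2 points. The last of these was unreplicated in 8 of 17 siRif1 and 0 of 15 siCont cells of the morula stage. At the 8-cell stage these 3 windows had differences of -12.5, -4.25 and -5.80 points. Cadm2, an adhesion gene on chromosome 16, lay in a window from 67 to 68 Mb with differences of -18.5 points at the 8-cell stage and -55.8 points at the morula stage.

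Most protein-coding genes were relatively more unreplicated in siRif1 late-S cells. A gene was placed by the bin of its midpoint, which was possible for 19449 of 20665 genes. The median difference over genes was 6.34 points at the 8-cell stage, 8.81 points at the morula stage and 8.85 points for both, and 75.2% of genes were positive for both. At 30 points or more, 2199 genes (11.3%) were more unreplicated and 260 (1.34%) less at the 8-cell stage, and 1686 (8.67%) more and 329 (1.69%) less at the morula stage. For both stages 687 (3.53%) were more and 84 (0.432%) less unreplicated. These values are the background for the gene lists.

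Genes of the major histocompatibility complex (MHC), whose products present antigens, had medians of 34.9 points at the 8-cell stage and 19.8 points at the morula stage. For both stages 35 of 35 measured members were positive and 14 were past 30 points, against 75.2 and 3.53% of all genes. H2-Ab1 and H2-Eb1, which encode class II chains, share their values, with 13 of 14 siRif1 and 4 of 21 siCont cells unreplicated at the 8-cell stage and 7 of 17 siRif1 and 1 of 15 siCont cells at the morula stage. The 35 genes occupy 28 bins of chromosome 17, so they largely repeat the windows above.

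Genes of growth and early development had medians nearer to that of all genes, 8.85 points for both stages. Of all genes 75.2% were positive and 3.53% past 30 points, the shares against which the counts below are to be read. The median of the ribosomal protein genes was 12.3 points for both stages (65 of 76 positive, 10 past 30 points). Rps10 was unreplicated in 13 of 14 siRif1 and 1 of 21 siCont cells of the 8-cell stage and in 6 of 17 siRif1 and 2 of 15 siCont cells of the morula stage, and lies in the chromosome 17 window of Anks1. That of the replication factor genes was 11.3 points (40 of 50 positive, 2 past 30 points). Rfc4, a subunit of the clamp loader, was unreplicated in 9 of 14 siRif1 and 0 of 21 siCont cells of the 8-cell stage and in 6 of 17 siRif1 and 1 of 14 siCont cells of the morula stage. Mcm5, a subunit of the replicative helicase, had differences of 15.9 and 49.2 points. That of the pluripotency genes was 7.59 points (26 of 31 positive), and Pou5f1, which encodes the factor OCT4 and lies on chromosome 17, was unreplicated in 9 of 14 siRif1 and 3 of 21 siCont cells of the 8-cell stage and in 6 of 17 siRif1 and 2 of 15 siCont cells of the morula stage. Nodal, a signalling ligand of the early embryo, had differences of 25.8 and 27.2 points. For trophectoderm genes it was 5.43 points (19 of 24 positive), with Krt7, a simple-epithelium keratin, at 30.9 points for both stages and the lineage factor gene Cdx2 at 26.2 points. For zinc finger genes of the Zfp series it was 9.68 points (270 of 350 positive, 18 past 30 points).

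The remaining clusters were mixed. Keratin and keratin-associated genes stood at a median of 12.9 points (86 of 109 positive, against 75.2% of all genes). Their medians were 20.6 points at the 8-cell stage and 7.24 points at the morula stage. Hox genes, the body-axis regulators, occupy 13 bins and had medians of -3.18 points at the 8-cell stage and 21.4 points at the morula stage. In cells of 55 to 70% the 8-cell median was 13.1 points. Histone genes, in 17 bins, had medians of 1.58 and 14.7 points, with 67 of 67 positive at the morula stage, against 74.0% of all genes. Members in 1 bin share their value. The 8-cell median of the histone genes was -2.25 points in cells of 55 to 70%. Protocadherin cluster genes, in 11 bins, had medians of -0.800 and -6.09 points, and an 8-cell median of 4.89 points in cells of 55 to 70%. Receptor genes of natural killer cells and C-type lectins had medians of 3.96 and -10.99 points.

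The lists of late-replicating long neuronal and sensory receptor genes lay below the median of all genes. Long neuronal and fragile-site genes had medians of -5.56 points at the 8-cell stage and -20.7 points at the morula stage, and of -13.8 and -21.8 points in cells of 55 to 70%. For both stages 40 of 49 were negative and 8 were past -30 points, against 0.432% of all genes. The bin of the Robo2 midpoint was unreplicated in 8 of 14 siRif1 and 16 of 21 siCont cells of the 8-cell stage and in 4 of 17 siRif1 and 12 of 14 siCont cells of the morula stage. The median of the olfactory receptor genes was -5.64 points for both stages, with 643 of 1024 negative. Past 30 points were 11 of them and past -30 points 1, against 3.53 and 0.432% of all genes. The exceptions included Olfr55 on chromosome 17 and Olfr371 on chromosome 8, which were 39.7 and 38.9 points more unreplicated. The vomeronasal receptor genes had a median of -4.79 points for both stages, but only 188 of 352 had a measured bin. Of these 188, 12 were past 30 points, against 3.53% of all genes, and 0 were past -30 points. Of 70 defensin genes only 41 had a measured bin, so both lists are given for their measured members only. The defensin median for both stages was 9.33 points, against 8.85 points for all genes, and -0.434 points in cells of 55 to 70%. Vmn1r45, on chromosome 6, was unreplicated in 13 of 14 siRif1 and 12 of 21 siCont cells of the 8-cell stage and in 11 of 17 siRif1 and 4 of 14 siCont cells of the morula stage.

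**Figure D5:**
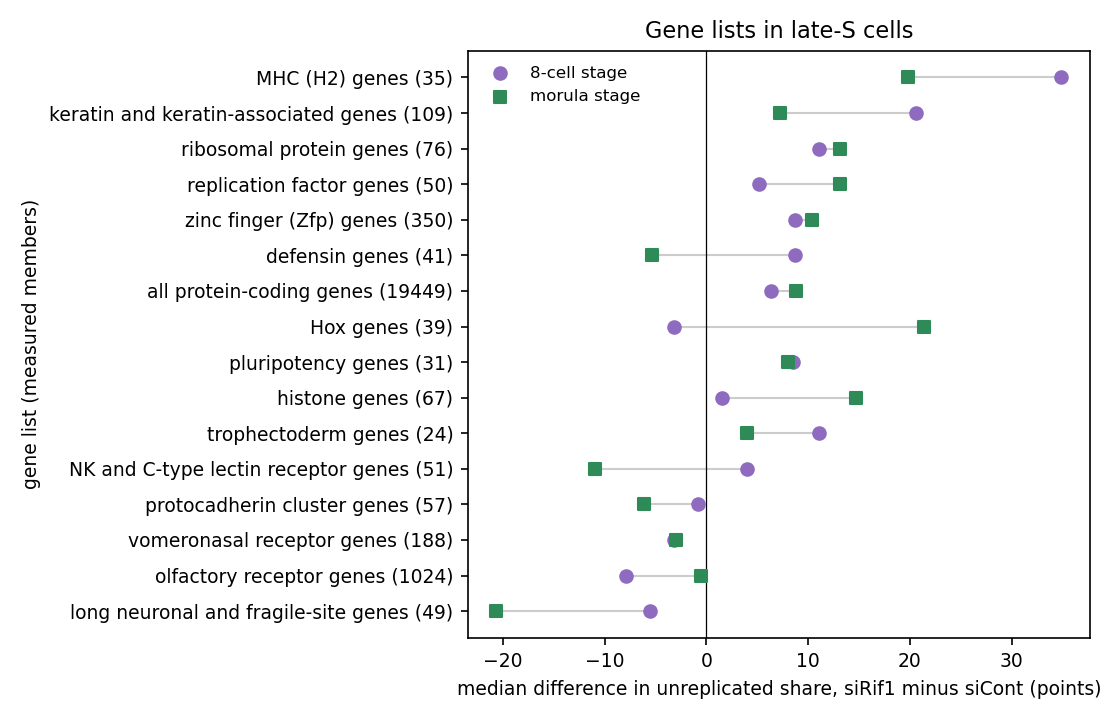
Median difference in unreplicated share, siRif1 minus siCont (horizontal axis, points), of 15 gene lists and of all protein-coding genes (vertical axis, with measured members in brackets), at the 8-cell stage (purple circles) and morula stage (green squares). MHC genes lie furthest right at the 8-cell stage at 34.9 points, and long neuronal and fragile-site genes furthest left at the morula stage at -20.7 points.

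Rif1 itself lies on chromosome 2. Its midpoint bin was unreplicated in 3 of 14 siRif1 and 2 of 21 siCont cells of the 8-cell stage and in 4 of 17 siRif1 and 6 of 15 siCont cells of the morula stage, differences of 3.96 and -12.8 points.

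The flatter profile was not particular to late-S cells. To compare with cells earlier in S phase, bins were classed by the control cells of the 4-cell stage, which belong to neither stage described. The gap between latest and earliest class was 32.9 points in siRif1 and 45.6 points in siCont late-S cells of the 8-cell stage, a difference of -12.7 points. In cells of 20 to 55% it was 27.3 points in 33 siRif1 and 42.7 points in 36 siCont cells, a difference of -15.4 points. In morula cells the gap was 22.7 points in siRif1 and 46.4 points in siCont late-S cells (-23.7 points), and 43.5 points in 28 siRif1 and 54.9 points in 29 siCont cells of 20 to 55% (-11.4 points). Whether late-S and earlier cells differ in this respect was not tested.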

How the data were processed

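The authors deposited 1 table per group with a state of 0, 1 or NA for each cell and 50-kb bin, treated here as a score. Tools named in the submitters' processing notes, without roles, are R 4.2.3, bedtools, Picard, SAMtools and Bowtie2 2.5.1, and the build is GRCm38. How reads became states, and the read depth per cell, are not given in the sources used here. No run of a state inside a chromosome was shorter than 5 bins (250 kb), so the states are smoothed. Replicated DNA was taken to be the value 1, since bins with gene midpoints had more of it in all 4 groups, for example 46.9% against 41.1% of measured values in siRif1 8-cell cells.

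States were analysed with Python 3.11.15, numpy 2.4.6, pandas 2.3.3 and SciPy 1.17.1. Each late-S cell had a state at 88.1 to 94.0% of 49264 bins. Used bins had at least 5 measured late-S cells in each group and a timing class (46069 bins, 93.5%), and windows of 1 Mb had at least 10 used bins. Cells of a group share embryos to an unknown extent, so no test was made. The scripts were tested on simulated data.

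Named were the 5 windows most unreplicated over the 4 groups. The 6 highest and 6 lowest differences of both stages among windows of 1 sign were added, with the 3 highest and 3 lowest of each stage, each with up to 3 of its longest genes. From each gene list came the 2 members with the largest difference, and Rif1 was added. Not all are printed. Members, lists and thresholds were chosen with earlier results of these data known. Genes were placed with RefSeq, GRCm38.p6. Alternatives were other thresholds, ranges, classes, centring, bin filters, window sizes and the omission of each cell.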

Additional observations from a re-analysis of the deposited data

Results flagged for a closer look

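Several differences between treatments had opposite signs at the 2 stages, and whether the stages differ was not tested. For Hox genes the median difference at the morula stage exceeded that at the 8-cell stage by 24.5 points, but in cells of 55 to 70% both medians were positive (19.9 and 13.1 points). Defensin genes (-14.0 points, morula minus 8-cell) and receptor genes of natural killer cells and C-type lectins (-15.0 points) had a negative median at the morula stage and a positive one at the 8-cell stage. The window on chromosome 6 from 68 to 69 Mb, with no annotated protein-coding gene, did so too, with -14.7 points between stages, although its 8-cell difference was -5.10 points in cells of 55 to 70%.

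Windows with the highest morula differences were negative at the 8-cell stage. The morula minus 8-cell value was 57.3 points for chromosome 8 from 47 to 48 Mb (Stox2), 46.9 points for chromosome 9 from 74 to 75 Mb (Wdr72) and 46.98 points for chromosome 9 from 123 to 124 Mb (Lars2). For the first of them the 8-cell difference was 7.48 points in cells of 55 to 70%. These windows were picked as extremes of 1 stage.

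The 4-cell stage, which no comparison above used as a stage of late-S cells, had 22 siRif1 and 18 siCont cells of at least 55%. Their gap was 16.9 points in siRif1 and 23.1 points in siCont cells, a difference of -6.23 points. Mean percent replicated was 67.1% in siRif1 and 73.4% in siCont cells.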

How the results depend on the processing

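The contrast between latest and earliest class was negative at both stages under every alternative run. In cells of 55 to 70% it was -30.3 (8-cell) and -32.2 points (both), in cells of 60% or more -9.18 and -22.0 points, and with classes from 4-cell controls -12.7 (8-cell), -23.7 (morula) and -18.2 points (both), with the latest class at -9.17 points. Classes from siRif1 cells below 55% gave -14.4 points at the 8-cell stage and -31.7 points at the morula stage. Counts of windows moved most (more, then less unreplicated). Cells of 55 to 70% gave 115 and 126 at the 8-cell stage, 123 more at the morula stage, 35 and 109 for both, and 1310 and 175 genes. Without centring there were 162 and 6 at the 8-cell stage, 24 more at the morula stage, 23 and 29 for both, and 50 genes less. At 40 points there were 16 and 4, 3 and 54, and 4 and 2 windows, and 173 and 7 genes. Windows of 2 Mb gave 23 and 11, 12 and 69, and 4 and 13. A threshold of 50% gave 36 more at the morula stage and 26 less for both, and one of 60% gave 23 more for both. The defensin median for both stages reversed to -0.434 points in cells of 55 to 70%. In all, 38 recomputed values of the main results moved and 110 did not.

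Leaving out 1 cell at a time gave contrasts of -23.2 to -15.8 points (8-cell), -37.4 to -32.0 (morula) and -28.8 to -25.1 (both). The earliest class ranged from 9.01 to 10.8 and the latest from -18.2 to -16.1 points for both. More unreplicated windows numbered 52 to 86, 56 to 90 and 9 to 17, less unreplicated ones 37 to 72, 161 to 210 and 40 to 67, and genes 539 to 861 and 62 to 108. The 8-cell count of 44 became 72 without siRif1 replicate 12 or replicate 20 and 68 without replicate 37. No paired analysis was possible because replicate numbers only name cells and no test was made. With 12 to 21 cells per group, a single cell moves a bin's share by several points, and bins or windows near a limit are not separable at this number of cells.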
